A study of Mus musculus with 4 samples.

Results

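Long intergenic non-coding RNAs are spliced transcripts that lie between protein-coding genes and have little or no coding potential. The LINC symbols number them without implying a function, and the SNHG symbols mark small nucleolar RNA (snoRNA) host genes, whose introns release the small RNAs that guide modification of ribosomal RNA while the joined exons become a long non-coding RNA. The genes described here were chosen by 2 criteria, a platform symbol of the form LINC or SNHG followed by a number, and a mean log2 signal of 4.5 or more in at least 1 of the 2 groups of arrays. Of 14884 genes that could be named on the array, 467 had such a symbol, 458 of them LINC and 9 SNHG. Of these, 153 reached the level, 145 LINC and 8 SNHG genes, and 314 did not. SNHG18 was the 1 SNHG gene below it, with 3.69 and 3.95 on the F5446 arrays and 3.95 and 3.79 on the Ctrl arrays.

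The arrays came from SW620, an established human cell line from a metastasis of a colon adenocarcinoma. F5446 cells received this small molecule, described by the submitters as selective for the histone H3 lysine 9 methyltransferase SUV39H1, at 50 nM for 2 days, and Ctrl cells were untreated, with no vehicle stated in the sources used here. Each group held 2 arrays, called biological replicates without mention of separate cultures, so the p-values speak only for the spread between arrays, which may be technical. The organism field of the records reads mouse, whereas SW620 is human and the platform symbols are human, and the data were treated as human.

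The series asks how SUV39H1 bears on the growth and death of colon carcinoma cells, and the 1 comparison it allows is F5446 against Ctrl in a single line. Of 14 colon epithelial markers 12 were measured, and 9 lay at 4.5 or more on every array, among them EPCAM, KRT8 and KRT18, while KRT20 lay below it on every array. EPCAM, KRT8, KRT18, CDX2, VIL1 and LGR5 fell, KRT19, CEACAM5 and CEACAM6 rose, and KRT20, CDX1 and TFF3 did not pass. The largest of these log2 fold changes were those of LGR5 (-4.58) and VIL1 (-3.87). Of 12 immune markers 6 were measured. Of these, CD2 and CD14 lay below 4.5 on every array. The other 4 lay above it on every array, namely CD68, which rose, PRF1 and LYZ, which fell, and NKG7, which did not pass. Of 4 stromal and endothelial markers measured, 3 were below 4.5 on every array and LUM reached it in Ctrl cells alone. The median signal of the measured markers was 6.04 and 6.05 on the F5446 arrays and 6.96 to 7.06 on the Ctrl arrays for the epithelial list. For the immune list it was 5.04 to 5.05 on the F5446 arrays and 5.89 to 5.91 on the Ctrl arrays, and for the stromal list 3.87 to 3.88 on the F5446 arrays and 3.82 on the Ctrl arrays. The part of these shifts in the results below was not tested. In a bulk sample, fewer cells carrying a transcript and less transcript per cell cannot be told apart.

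Since the level criterion looks at each group mean, a gene can enter through the group in which it is high. For this reason the test is given only for the 137 genes whose mean over all 4 arrays was 4.5 or more, a quantity that does not depend on which group was higher. The other 16 are given as values. The 4-array mean treats both groups alike, but it can still reach 4.5 through the higher group while the lower group lies under it. This held for 11 of the tested genes that passed at an adjusted p of 0.05. LINC00261, for example, had a mean of 3.89 in F5446 cells and 5.46 in Ctrl cells. These genes are kept in the counts below, so the limit on the mean does not fully remove this selection. Just inside the limit lay LINC00663, with a higher group mean of 4.51, LINC00853 and LINC01623, both with 4.52. Just outside it lay LINC00303 and LINC01235, both with 4.49, and LINC01018 with 4.48. The table has no detection calls, so 4.5 is a level and not a limit of detection.

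After F5446, LINC genes moved in both directions. Only 4 of the 8 SNHG genes passed, and these were higher. Of the 137 tested genes, 34 rose, 27 fell and 76 did not pass limma's test at an adjusted p of 0.05, with p-values adjusted over all 14884 genes. LINC00622 rose 16.5-fold, LINC00707 4.95-fold and LINC00941 3.72-fold, while LINC00673 fell 3.74-fold and LINC00261 2.98-fold. A change of 2-fold or more was reached by 9 of the genes that rose and 10 of those that fell. The median log2 fold change was 0.11 (0.05 without Ctrl replicate 1) and the interquartile range was -0.24 to 0.38. Without F5446 replicate 1 the number that rose was 22.

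These counts stand against a background in which much of the transcriptome changed. Over all genes tested 40.9% passed, 18.2% higher and 22.7% lower. Over the 10068 genes with a 4-array mean of 4.5 or more it was 56.5%, 25.5% higher and 30.9% lower, with a median log2 fold change of -0.05. With each array centred on its median, taken over the named genes, 3151 of the 10068 were higher and 2578 lower, with a median of 0.07. The lean of the background thus depends on the scaling. Among the 137 non-coding genes 44.5% passed, 24.8% higher and 19.7% lower. Changes of at least 2-fold that passed made up 6.57% (higher) and 7.30% (lower) of the 137, against 7.57% and 10.4% of the 10068. The 2 F5446 arrays lay beyond both Ctrl arrays, on one side or the other, at 98 of the 137 genes (71.5%) and at 78.1% of the 10068.

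Most of the 137 genes were dim, with a median 4-array mean of 5.39, against 6.77 for the 10068 genes. Split by level, in bins chosen after the values were seen, 23 of 75 passed with a mean from 4.5 to under 5.5 (30.7%, against 23.7% of all genes in that bin). From 5.5 to under 7, 16 of 32 passed (50%, against 56.2%). At 7 or more, 22 of 30 passed (73.3%, against 73.4%). The share of LINC and SNHG genes that passed was thus above that of all genes in the lowest bin, below it in the middle bin and nearly equal in the top bin, and these differences were not tested. Their median absolute log2 fold change in the top bin was 0.51, against 0.49 for all genes there. Replicate arrays differed with an SD of 0.216 (F5446) and 0.268 (Ctrl) over the 137 genes, and pairs of 1 F5446 and 1 Ctrl array with an SD of 0.725 to 0.784.

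**Figure D1:**
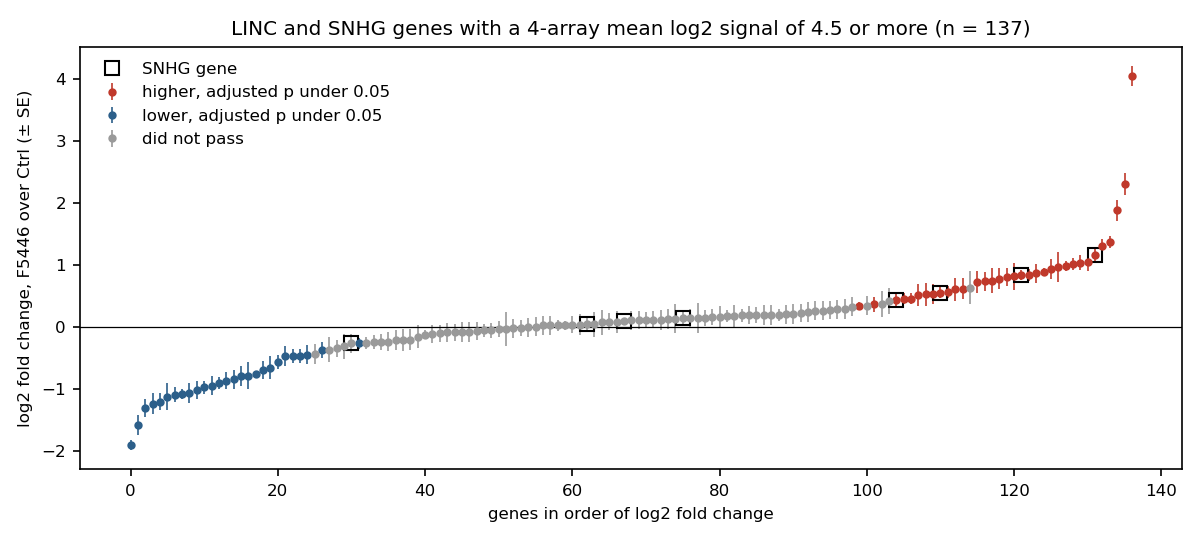
Log2 fold change, F5446 over Ctrl, with its standard error from limma, for the 137 LINC and SNHG genes with a 4-array mean log2 signal of 4.5 or more, in order of change along the horizontal axis. Red points (34) were higher and blue points (27) lower at an adjusted p under 0.05, grey points (76) did not pass, and open squares mark the 8 SNHG genes; LINC00622 stands at the right end at 4.05 and LINC00673 at the left end at -1.90.

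LINC00622 changed more than any other of the 137 genes. Its log2 signal was 8.67 and 8.35 on the F5446 arrays, against 4.28 and 4.65 on the Ctrl arrays. Both Ctrl arrays sat near the 4.5 level and both F5446 arrays far above it, so the groups did not overlap, and with no detection calls it is not known how much of the Ctrl signal is background. The same limit applies to the fold of each of the 11 tested genes past the threshold with a group mean under 4.5, among them LINC00707, LINC01940 and LINC00261. In the list of other non-coding RNAs it applies to those of MIR31HG, UCA1, CASC2 and HOTAIR. UCA1, named after its value was seen, changed by 2.40 on the log2 scale, or 1.34 with its probe sets averaged. The log2 fold change of LINC00622 was 4.05 ± 0.16 (SE, n = 2 each, limma adjusted p = 1.42e-07), and it ran from 3.86 to 4.23 with each array left out in turn.

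LINC00707 and LINC00941 followed. LINC00707 had 6.50 and 6.68 on the F5446 arrays and 4.04 and 4.52 on the Ctrl arrays, which is 2.31 ± 0.18 higher on the log2 scale (SE, n = 2 each, limma adjusted p = 8.37e-06). LINC00941, which has been described as a repressor of differentiation in human keratinocytes, had 6.98 and 6.70 on the F5446 arrays and 4.74 and 5.14 on the Ctrl arrays (log2 fold change 1.89 ± 0.17, SE, limma adjusted p = 1.83e-05). In both genes each F5446 array lay above each Ctrl array by more than the gap between replicates. LINC03009 was higher as well, with 8.14 and 8.03 on the F5446 arrays and 6.77 and 6.66 on the Ctrl arrays, a 2.58-fold rise.

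Smaller rises of about the same size were found in LINC00629, LINC01433 and LINC01940. LINC00629 had 5.75 and 5.68 in F5446 cells and 4.62 and 4.70 in Ctrl cells, a log2 fold change of 1.05. For LINC01433 the signals were 6.62 and 6.53 in F5446 cells and 5.53 and 5.55 in Ctrl cells (1.04 on the log2 scale). Replicates of these genes lay close together and the groups were well apart. LINC01940 had 5.27 and 5.09 in F5446 cells and 4.25 and 4.22 in Ctrl cells, a 1.92-fold rise. LINC01226 was less even, with 6.30 and 5.90 in F5446 cells and 5.49 and 4.77 in Ctrl cells. Its log2 fold change of 0.97 ± 0.24 (SE, limma adjusted p = 0.0087) was 0.61 without Ctrl replicate 2 (adjusted p = 0.068) and 0.77 without F5446 replicate 1 (adjusted p = 0.14), and with every probe set of the array tested its adjusted p was 0.060.

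LINC01061, LINC01000, LINC00999 and LINC01347 all rose, by similar amounts. Their brightest probe sets rose 2.47-fold (LINC01061), 2.02-fold (LINC01000), 1.99-fold (LINC00999) and 1.85-fold (LINC01347, chosen after its value was seen), with limma adjusted p-values of 2.36e-05, 3.09e-05, 1.34e-05 and 8.22e-06. LINC01061 had 10.93 and 10.71 on the F5446 arrays and 9.71 and 9.32 on the Ctrl arrays. LINC01000 had 11.14 and 10.96 on the F5446 arrays and 10.18 and 9.88 on the Ctrl arrays. In all 4 genes, F5446 replicate 1 was the highest array and Ctrl replicate 2 the lowest.

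Each of these 4 genes had several probe sets, 20 in all, and these did not change alike. The 10 with a mean of 9 or more changed by 0.89 to 1.31 on the log2 scale, and all 10 passed when every probe set was tested on its own. The 10 dimmer ones changed by 0.07 to 0.85, and 4 of them passed. LINC01061 shows the split within 1 symbol, since its 5 bright probe sets changed by 1.21 to 1.31 and its 2 dimmer ones by 0.07 and 0.21. Whether the bright probe sets read sequence that occurs in several copies of the genome was not tested, and the values of these 4 genes are uncertain for that reason. With its probe sets averaged LINC00999 changed by 0.62 in place of 0.99 and LINC01061 by 0.93 in place of 1.31. The level of 9 was set after the values were seen.

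By the brightest probe set of each gene, LINC00673 had the largest fall of the 137 genes; with probe sets averaged, LINC00511 fell further. LINC00673, an RNA reported to promote breakdown of the phosphatase PTPN11 in pancreatic cells, had 7.43 and 7.32 on the F5446 arrays and 9.30 and 9.26 on the Ctrl arrays. The 2 groups were separated by many times the gap between replicates. The log2 fold change was -1.90 ± 0.078 (SE, n = 2 each, limma adjusted p = 1.89e-07).

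LINC00261, which neighbours the endoderm factor gene FOXA2 and takes part in endoderm differentiation, had 3.97 and 3.81 on the F5446 arrays and 5.55 and 5.37 on the Ctrl arrays. Both F5446 arrays were under the 4.5 level and both Ctrl arrays above it. Its log2 fold change was -1.58 ± 0.16 (SE, limma adjusted p = 4.27e-05).

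LINC00511, a transcript reported to bind the histone methyltransferase EZH2, gave different sizes of change from its 2 probe sets. The brighter one had 5.28 and 5.75 in F5446 cells and 6.32 and 6.96 in Ctrl cells, that is -1.12 ± 0.22 on the log2 scale (SE, limma adjusted p = 0.0029). Its call was lost without F5446 replicate 1, with a log2 fold change of -0.89 and an adjusted p of 0.064. The second had 4.42 and 4.02 in F5446 cells and 7.67 and 7.63 in Ctrl cells, a change of -3.43 with an adjusted p of 1.80e-04 when every probe set was tested. Both probe sets were lower in F5446 cells, and the second differed far more. With the 2 probe sets averaged, LINC00511 changed by -2.28 (adjusted p = 1.57e-06).

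Of the other large falls, LINC00525 had 4.79 and 4.85 in F5446 cells and 5.98 and 6.27 in Ctrl cells, a 2.47-fold fall. LINC02418 had 5.26 and 4.84 in F5446 cells and 6.38 and 6.18 in Ctrl cells, a 2.34-fold fall. LINC00467, a target of MYCN-mediated repression in neuroblastoma, had 5.60 and 5.80 in F5446 cells and 6.76 and 7.04 in Ctrl cells, a 2.30-fold fall. All 3 had non-overlapping groups, as did 78.1% of all genes at the 4.5 level. LINC00857 was the most even of the group, with 7.33 and 7.39 in F5446 cells and 8.42 and 8.46 in Ctrl cells (log2 fold change -1.08 ± 0.081, SE, limma adjusted p = 6.32e-06).

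LINC01124, LINC01963 and LINC00920 also fell by slightly over 2-fold, with log2 fold changes of -1.09, -1.06 and -1.01. LINC00963, first described in prostate cancer progression, fell 1.95-fold, and LINC00239 fell 1.91-fold. LINC01963 and LINC00239 had a wider gap between the F5446 arrays than between the Ctrl arrays, 6.75 and 6.28 against 7.47 and 7.68 for LINC01963 and 5.89 and 5.48 against 6.65 and 6.58 for LINC00239. The adjusted p of these 12 falls in limma's test ran from 1.89e-07 (LINC00673) to 0.0029 (LINC00511). Among genes named after their values were seen, LINC00460 fell 1.87-fold, with 8.14 and 8.32 in F5446 cells and 9.04 and 9.23 in Ctrl cells. LINC00987 fell 1.68-fold with the smallest standard error of the genes that fell, at 11.26 and 11.28 in F5446 cells and 11.97 and 12.06 in Ctrl cells (log2 fold change -0.75 ± 0.047, SE, limma adjusted p = 2.27e-06). Its second probe set, far dimmer, changed by -0.43 and did not pass on its own (adjusted p = 0.18).

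**Figure D2:**
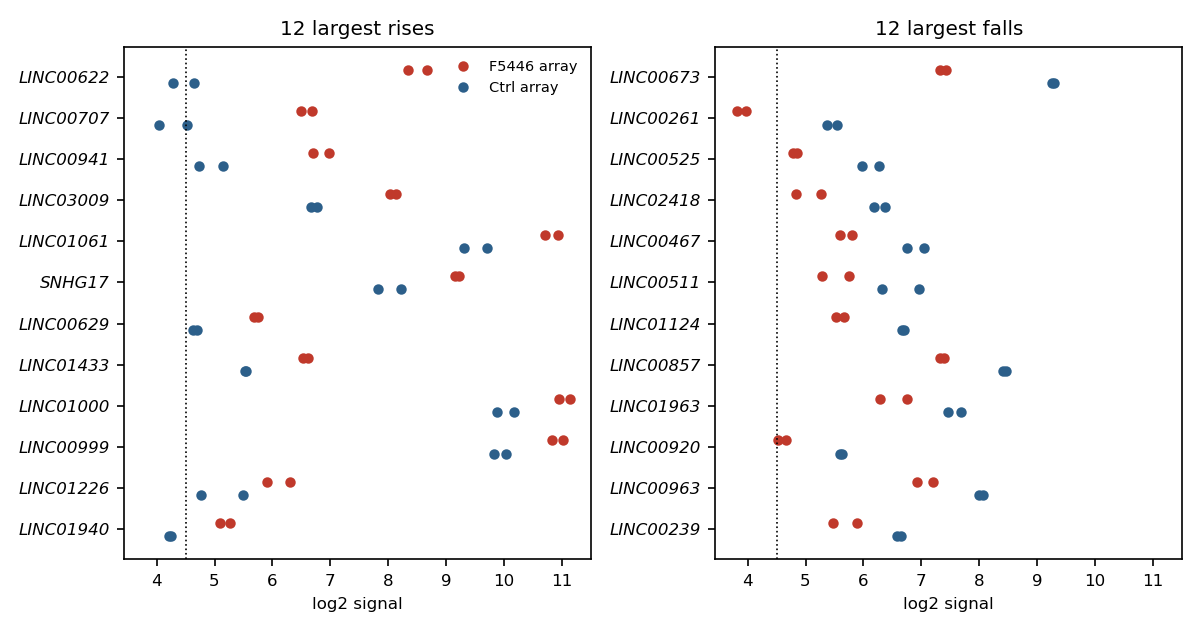
Log2 signal on each array of the 12 tested genes with the largest rises (left) and the 12 with the largest falls (right), with the 2 F5446 arrays in red above the 2 Ctrl arrays in blue for each gene. The dotted line marks the 4.5 level, and LINC00622 has the widest gap between the groups. The genes were chosen by their change on these same arrays, so the gaps between their groups are no separate evidence.

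Across all 153 genes, 30 had more than 1 named probe set, which adds 51 probe sets that neither the level criterion nor the test had used. Of these, 42 changed with the same sign as the brightest probe set of their gene and 9 with the other sign. The 26 that belong to 13 genes past the threshold all had the same sign as the brightest one. The 9 of opposite sign belong to genes that did not pass or were not tested. Most of the 26 belong to LINC00999, LINC01000, LINC01061 and LINC01347, whose values are uncertain as described above. The rest changed by -3.43 (LINC00511) to 0.88 (LINC01094), and some hardly at all, such as those of LINC00641 (0.03) and LINC00693 (-0.10). The probe sets of 1 symbol were read on the same arrays, so they do not repeat the experiment. Whether they read the same transcript was not tested. LINC01623 had 7 probe sets, of which 6 shared their values with another on every array, so they hold no separate information.

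**Figure D3:**
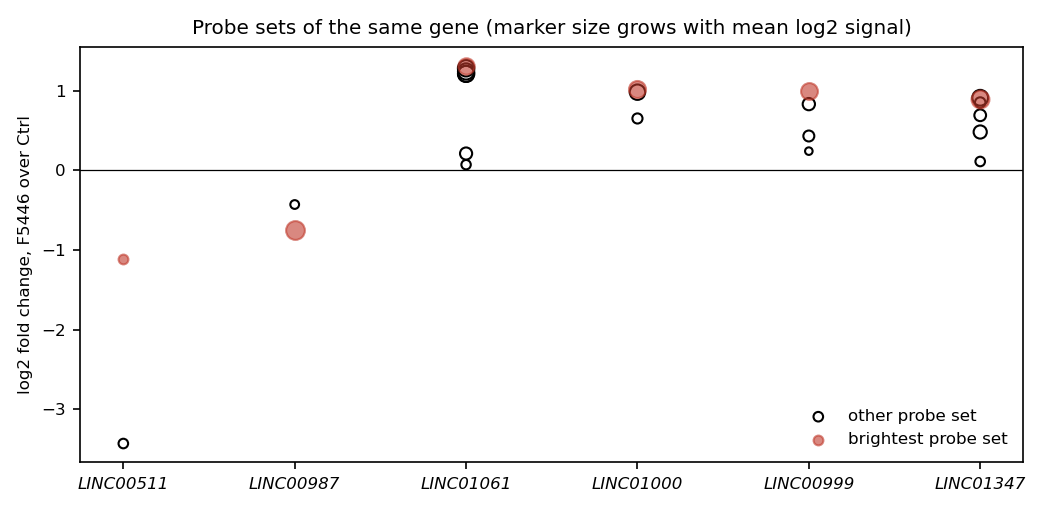
Log2 fold change, F5446 over Ctrl, of every named probe set of 6 genes, with the brightest probe set of each gene in filled red and the others as open circles, and marker size growing with the mean log2 signal. The 2 probe sets of LINC00511 lie at -1.12 and -3.43, and the 7 of LINC01061 split into 5 from 1.21 to 1.31 and 2 at 0.07 and 0.21.

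Of the 8 snoRNA host genes with an SNHG symbol 4 rose, 4 did not pass and 0 fell in limma's test (0 fell and 4 rose at an unadjusted p of 0.05 as well). That is 50% called, all higher, beside 25.5% higher and 30.9% lower among all genes at the 4.5 level, and 73.4% called in either direction at a mean of 7 or more. The exons of many host genes begin with a pyrimidine tract typical of ribosomal protein genes, and their spliced RNAs are commonly removed by nonsense-mediated decay once ribosomes read them. SNHG17, which hosts snoRNAs of the SNORA71 family, had 9.23 and 9.16 on the F5446 arrays and 8.22 and 7.83 on the Ctrl arrays. SNHG8, which hosts SNORA24, had 9.24 and 9.40 on the F5446 arrays and 8.57 and 8.41 on the Ctrl arrays. The groups were apart in both genes, with log2 fold changes of 1.17 ± 0.12 for SNHG17 (SE, n = 2 each, limma adjusted p = 4.01e-05) and 0.84 ± 0.085 for SNHG8 (adjusted p = 4.25e-05).

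SNHG20 and SNHG5 rose by less. SNHG20 had 7.72 and 7.76 on the F5446 arrays and 7.22 and 7.13 on the Ctrl arrays, a 1.47-fold rise (limma adjusted p = 7.71e-04). SNHG5, which hosts the SNORD50 snoRNAs, had 8.74 and 8.66 on the F5446 arrays and 8.40 and 8.12 on the Ctrl arrays, a 1.36-fold rise (adjusted p = 0.0057, and 0.087 without F5446 replicate 1). The arrays of the 2 groups did not overlap in either gene, as in 78.1% of all genes at the 4.5 level.

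The other 4 did not pass. SNHG16 had 10.57 and 10.59 on the F5446 arrays and 10.51 and 10.46 on the Ctrl arrays, a change of 0.10 ± 0.051 on the log2 scale (SE, limma adjusted p = 0.17), and it passed with each array centred on its median (0.23, adjusted p = 0.0058). SNHG15, which had 7.66 and 7.58 in F5446 cells and 7.69 and 7.26 in Ctrl cells, had a log2 fold change of 0.15 (adjusted p = 0.46) and passed without Ctrl replicate 1 (0.36, adjusted p = 0.042). The 2 Ctrl arrays of SNHG15 enclosed both F5446 arrays. SNHG10 changed by 0.05 ± 0.11 on the log2 scale (SE, adjusted p = 0.79), and its sign and that of SNHG15 turned without Ctrl replicate 2, to -0.06 and -0.07. SNHG33 had 5.23 and 5.45 in F5446 cells and 5.51 and 5.70 in Ctrl cells, a change of -0.26 ± 0.15 on the log2 scale (SE, adjusted p = 0.21), or -0.16 without F5446 replicate 1 and -0.17 without Ctrl replicate 2. The 8 genes had a median log2 fold change of 0.29, beside 0.09 for the 129 tested LINC genes, of which 30 rose and 27 fell; the difference between the 2 symbol classes was not tested.

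Host genes without an SNHG symbol were taken from a list of 18 symbols, an older name of RACK1 among them. Of these, 8 were measured, and 4 rose and 1 fell (2 to 4 rose and 1 to 2 fell over the alternatives). These are 50% higher and 12.5% lower, beside 25.5% and 30.9% of all genes at the 4.5 level. The 8 genes were bright, with 4-array means of 6.83 to 12.77. Their 62.5% called in either direction was below the 73.4% of all genes with a mean of 7 or more. The share of those bright genes that rose is not given here. ZFAS1 rose 2.13-fold, with 11.91 and 11.86 in F5446 cells and 10.80 and 10.79 in Ctrl cells (log2 fold change 1.09 ± 0.045, SE, limma adjusted p = 2.11e-07). EPB41L4A-AS1 rose 1.81-fold (log2 fold change 0.86), with a gap between its Ctrl arrays (8.27 and 7.49) nearly as wide as the change; it was 0.47 without Ctrl replicate 2 and missed the threshold without either F5446 replicate (adjusted p = 0.13 and 0.068). DANCR, which hosts SNORA26, went the other way, with 6.40 and 6.46 in F5446 cells and 7.25 and 7.21 in Ctrl cells, a 1.74-fold fall. GAS5 rose 1.64-fold and EEF2, an elongation factor gene, 1.21-fold (a call lost without an intensity trend, adjusted p = 0.075), both named after their values were seen. The median log2 fold change of the 8 was 0.18, against -0.05 for all 14884 genes.

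**Figure D4:**
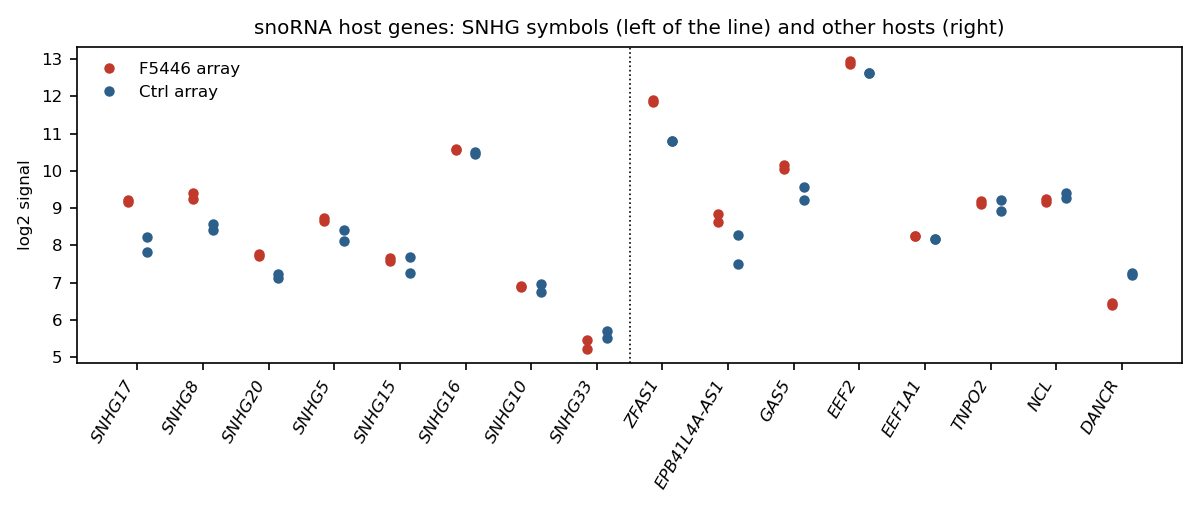
Log2 signal on each array of the 8 SNHG genes (left of the dotted line) and 8 other snoRNA host genes (right of it), with F5446 arrays in red left of the Ctrl arrays in blue for each gene, both sets in order of log2 fold change. SNHG17, SNHG8 and ZFAS1 show F5446 arrays clear of the Ctrl arrays, the 2 groups of SNHG10 and SNHG15 overlap, and DANCR lies lower in F5446 cells.

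Genes of the proteins that bind and build snoRNAs were also measured. The list of snoRNP proteins and snoRNA biogenesis held 21 symbols, an older name of SNU13 among them. Of these, 16 were measured, and 11 fell, 1 rose and 4 did not pass (median log2 fold change -0.35, against -0.05 over all genes). The 68.8% that fell stand beside 30.9% of all genes at the 4.5 level. These 16 genes were bright, with 4-array means of 6.70 to 11.13. Their 75% called in either direction was near the 73.4% of all genes with a mean of 7 or more. The share of those bright genes that fell is not given here. RUVBL1 and RUVBL2, the ATPases of the R2TP assembly machinery, fell 3.11-fold and 2.22-fold, and PIH1D1, another R2TP subunit, fell 2.12-fold. RUVBL1 had 6.48 and 6.50 in F5446 cells and 8.13 and 8.12 in Ctrl cells. SNU13, a core protein of C/D box snoRNPs and of a spliceosomal particle, was the 1 that rose (1.28-fold, limma adjusted p = 0.016, and 0.11 without Ctrl replicate 2 or 0.17 without F5446 replicate 2); it and FBL, the methyltransferase of the same particles, which fell 1.73-fold, were named after their values were seen. With arrays centred, 10 fell and 2 rose.

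Of 23 listed nonsense-mediated decay genes 10 were measured, and 4 rose, 3 fell and 3 did not pass, so that 70% were called. The helicase gene DHX34 rose 1.88-fold, CASC3, which encodes a component of the exon junction complex, 1.62-fold and NBAS 1.54-fold. UPF1, the central helicase of the pathway, had 9.24 and 9.24 in F5446 cells and 9.33 and 9.09 in Ctrl cells and did not pass (limma adjusted p = 0.85; named after its value was seen). The list of nuclear RNA processing and decay held 42 symbols, older names of MTREX and TENT4B among them. Of these, 27 were measured, and 8 rose and 13 fell, or 9 and 8 with arrays centred. Without an intensity trend 6 rose and 7 fell. INTS9, a subunit of the Integrator complex, fell 2.23-fold, XRN1, the cytoplasmic 5′ to 3′ exonuclease, rose 2.12-fold and EXOSC2, an exosome subunit, fell 2.07-fold. Neither list moved in a single direction. The 77.8% called in the processing and decay list and the 70% of the decay factors stand beside 73.4% of all genes with a mean of 7 or more. That class is not matched in level, since the 4-array means began at 5.78 in the processing list and at 3.13 among the decay factors.

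Other named long non-coding RNA genes, from a list of 35 of which 23 were measured, gave 10 rises, 3 falls and 10 that did not pass (median log2 fold change 0.20). The share called, 56.5%, stands beside 40.9% of all genes tested. By direction, 43.5% rose and 13% fell, beside 18.2% and 22.7% of all genes tested. All genes at the 4.5 level gave 56.5% as well, which is a different set. Only 19 of the 23 had a 4-array mean at that level, and the dimmer ones did not pass. LINC-PINT, a non-coding transcript that p53 induces, rose 5.95-fold, with 10.24 and 10.05 in F5446 cells and 7.68 and 7.47 in Ctrl cells. SW620 is a p53-mutant line, and any part of p53 in this rise was not tested. MIR31HG, a microRNA host transcript, rose 5.91-fold, with 6.60 and 6.49 in F5446 cells and 3.66 and 4.30 in Ctrl cells, and MIR22HG had the largest rise of the list (log2 fold change 3.19 ± 0.11, SE). The falls were those of CASC2 (2.01-fold), HOTAIR (1.75-fold, not passed without Ctrl replicate 1 or either F5446 replicate, adjusted p = 0.066 to 0.082) and RMRP, the RNA of a ribonuclease that processes ribosomal RNA (1.45-fold), named after their values were seen. CYTOR, formerly numbered as a LINC gene and so outside the symbol rule, rose 3.43-fold, with 10.69 and 10.80 in F5446 cells and 8.96 and 8.97 in Ctrl cells, and MALAT1, an abundant nuclear RNA, rose 2.05-fold; both were also named after their values were seen.

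The 16 genes that reached 4.5 in 1 group mean and fell short of it over all 4 arrays are described without a test, since the level chose them. Of these, 8 reached it in F5446 cells, with differences, F5446 minus Ctrl, of 0.08 to 2.08, and 8 in Ctrl cells, with differences of -1.12 to -0.21. LINC00520, known in endothelial cells as an enhancer-derived RNA that supports expression of nitric oxide synthase, had 5.32 and 5.40 on the F5446 arrays and 3.55 and 3.01 on the Ctrl arrays. LINC00862 had 5.14 and 4.84 on the F5446 arrays and 2.90 and 3.04 on the Ctrl arrays. These 2 had the widest gaps of the 16, with both F5446 arrays above 4.5 and both Ctrl arrays far under it.

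LINC01060 had 4.86 and 4.41 on the F5446 arrays and 3.50 and 3.84 on the Ctrl arrays. LINC00312, first identified in nasopharyngeal carcinoma, had 3.84 and 3.70 on the F5446 arrays and 5.21 and 4.57 on the Ctrl arrays, and LINC01132 had 3.97 and 3.57 on the F5446 arrays and 4.68 and 4.72 on the Ctrl arrays. The other 11 had narrower gaps between the groups. LINC00174 differed by -0.64, LINC00028 by -0.63, LINC01623 by -0.46, LINC01298 by -0.40, LINC01140 by -0.37 and LINC00200 by -0.21. Among those carried by F5446 cells, LINC00424 differed by 0.29, LINC00663 by 0.26, LINC00226 by 0.22, LINC02774 by 0.10 and LINC00853 by 0.08.

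**Figure D5:**
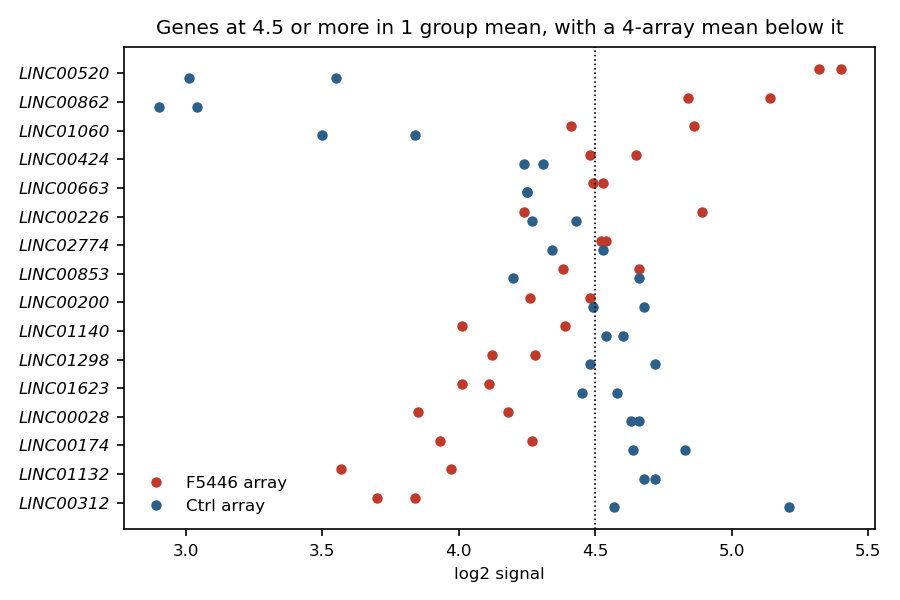
Log2 signal on each array of the 16 genes whose mean reached 4.5 in 1 group and not over all 4 arrays, with the F5446 arrays in red above the Ctrl arrays in blue for each gene, in order of the difference between group means. The dotted line marks 4.5; LINC00520 and LINC00862 at the top differ by 2.08 and 2.02, and LINC00312 at the bottom by -1.12.

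The remaining 106 tested genes are those outside the 12 largest rises, the 12 largest falls and the SNHG genes. Those past the threshold changed by less than any of these rises or falls, though some by more than the SNHG genes that rose. LINC01347, LINC00460 and LINC00987, described above, are among them. Of these, 19 rose, with log2 fold changes of 0.34 to 0.89 and adjusted p-values in limma's test of 8.2e-06 to 0.038, and 15 fell, with log2 fold changes of -0.90 to -0.26 and adjusted p-values of 2.3e-06 to 0.046. The 72 that did not pass lay between -0.43 and 0.64. Among the 19, all named after their values were seen, LINC00641 had 8.37 and 8.24 in F5446 cells and 7.55 and 7.36 in Ctrl cells, a 1.79-fold rise, or 0.44 in place of 0.84 on the log2 scale with its dim second probe set averaged in. LINC00665, from which a small peptide that acts on the translation of CIP2A has been described, rose 1.76-fold, and its second probe set changed by 0.47. LINC01278 had a smaller rise, 1.26-fold, from arrays that lay close together (9.39 and 9.47 in F5446 cells and 9.05 and 9.14 in Ctrl cells), and missed the threshold without F5446 replicate 2 (adjusted p = 0.055). Among the 72, LINC00933 had 8.84 and 8.86 in F5446 cells and 8.80 and 8.83 in Ctrl cells, and LINC01106 had 8.72 and 8.82 in F5446 cells and 8.94 and 8.83 in Ctrl cells.

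The direction of a small change depended on how the arrays were scaled. The median of the named genes was lower by 0.13 on the F5446 arrays. Centring each array on that median raised every log2 fold change by about that amount. Over all probe sets, named or not, the median was instead slightly higher on the F5446 arrays, 4.43 and 4.44 against 4.4 and 4.41 on the Ctrl arrays. Centring on that second median was not tried, so the centred counts hold for the named-gene median only. With arrays centred, 41 of the 137 genes rose and 23 fell. All 34 genes that rose as deposited also rose when centred, and 23 of the 27 that fell also fell. The 4 falls lost were those of LINC00294, LINC00526, LINC00693 and LINC00910. The sign turned in 15 genes, none of them past the threshold in the deposited values.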

How the data were processed

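For each of 53617 probe sets the deposited table gives 1 signal on each of 4 arrays, treated as log2. The authors' deposited values do not state a scale; log2 was inferred from their range (0.71 to 13.8). Partek is the only program named, per the submitters' processing notes, with no statement of background correction, normalization or summarisation. The platform annotation names 16098 probe sets with 1 symbol each, none with several, and 37519 with none. They cover 14884 genes, of which 779 had several probe sets; the one of highest mean over the 4 arrays stood for the gene.

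The unaltered values entered limma 3.58.1 (R 4.3.3; lmFit, then trended eBayes) with treatment as the sole factor, giving two-sided p-values adjusted by Benjamini-Hochberg over all genes. Errors of fold changes are standard errors from the fit. With 2 arrays per group, array number limits the precision.

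Genes named are all SNHG genes, the 12 largest rises and 12 largest falls past the threshold among the 137 tested genes, the 16 untested ones, 3 genes on each side of the level limit, and the 3 largest changes past the threshold in each list; others are marked as chosen afterwards. The members and lists were chosen with earlier results of these data known. Same-numbered arrays did not deviate together (r = 0.0436 across genes). Alternatives covered scaling, variance model, probe sets, a dim-gene filter, a replicate block, left-out arrays and the level limit. Sequences, promoter motifs and neighbouring genes are not analysed here, since the reference tables used here are for mouse.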

Additional observations from a re-analysis of the deposited data

How the results depend on the processing

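The counts over all genes and over the 137 tested genes stayed within 1.5 times their values under every setting tried, except the 34 rises, which were 22 without F5446 replicate 1. With each array left out in turn, the rises ran from 22 to 33 and the falls, 27 with all arrays, from 18 to 22. The median log2 fold change of the tested genes (0.11) was 0.07 after quantile normalization, 0.23 with each array centred and 0.02 with a level limit of 4.0 in place of 4.5, and ran from 0.05 to 0.11 with left-out arrays. The number of genes at the level was 219 with a limit of 4.0 and 110 with 5.0. With the replicate block, 33 rose and 23 fell; the arrays share a number and no stated pairing. With every probe set tested, 25 rose and 20 fell. Over 11 alternatives (both rescalings, both variance models, averaged probe sets, all probe sets, the block and 4 left-out arrays), 20 of the 34 rises and 16 of the 27 falls passed in each. Of 27 genes named by the rule and past the threshold, 24 passed in each; the others were LINC00511, LINC01226 and SNHG5. Signs turned for SNHG10 and SNHG15, whose log2 fold changes ran from -0.06 to 0.15 and from -0.07 to 0.36 with left-out arrays, the lower values being without Ctrl replicate 2. The cause of these changes was not tested.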
